A study of Macaca mulatta with 30 samples.

Results

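The genes that set vascular tone through nitric oxide, endothelin and prostaglandins were followed in fetal rhesus macaques after antenatal betamethasone. They were chosen by name: the nitric oxide synthase NOS3, the cyclase subunits GUCY1A1 and GUCY1B1, the phosphodiesterase PDE5A, the ligand EDN1 with its receptors EDNRA and EDNRB, the cyclooxygenases PTGS1 and PTGS2, and the prostacyclin synthase PTGIS. Of the 10 members, 9 were matched among 30246 identifiers of the lung table and the same 9 among 32386 of the hippocampus table. EDN1 was not analysed here. All 9 had enough reads to be tested in both tissues.

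Pregnant animals were injected intramuscularly with betamethasone or given saline. Whole lung RNA came from wild type fetuses labelled gestational day 124 to 130, in 5 groups of 3. These were saline, the clinical drug after 4 h or 5 days, and Beta-Ac after 6 h or 5 days. The clinical drug, Celestone, combines betamethasone phosphate with betamethasone acetate and was given at 0.25 mg/kg, while Beta-Ac is the acetate alone at 0.125 mg/kg. Hippocampus RNA came from 3 groups of 5 fetuses of 130 to 136 days, saline and both drugs, all delivered 5 days after injection. Of these fetuses 9 also gave lung, and their hippocampus labels of 131 to 136 days lie above the lung range. The age labels of the tissues thus conflict for the same animals, and the lung fetuses cannot be taken as younger. The paper puts treatment at an age within the lung label range. Its mean delivery ages, the 4 h and 6 h groups included, lie within 130 to 136 days. The lung saline labels give no interval, but the hippocampus labels of the same animals (15-92, 15-101 and 16-113) give 5 days. In the 4 h and 6 h lung comparisons with saline, the interval since injection thus differs with the drug. The 2 cannot be told apart there. Hippocampus groups follow the library names, because the treatment and dose fields put the opposite drug and dose on the same libraries. For the 6 drug-treated animals with both tissues, the names match the lung labels.

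Nitric oxide made by NOS3 in endothelium activates soluble guanylate cyclase, a pair of alpha (GUCY1A1) and beta (GUCY1B1) subunits in smooth muscle. The cyclic GMP it makes relaxes the vessel until PDE5A breaks it down. Endothelin constricts through EDNRA on smooth muscle, whereas EDNRB on endothelium clears endothelin and releases nitric oxide. PTGS1 and PTGS2 make the prostaglandin precursor that PTGIS turns into prostacyclin, a dilator. These pathways keep pulmonary vascular resistance high before birth and lower it at birth.

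Lung libraries held 14.1 to 45 M reads on genes and hippocampus libraries 18.3 to 29.3 M. The deepest library belonged to the clinical drug at 4 h. A run of 37 consecutive identifiers without symbols took 1.02% of reads in lung saline replicate 1 and 4.56 to 6.71% in the other 14 lung libraries. In hippocampus it took 0.721 and 0.749% in saline replicate 1 and Beta-Ac replicate 4, and 7.37 to 17.5% elsewhere. Hippocampus saline replicate 5 held choroid plexus markers at a summed 1080 CPM. Endothelial markers summed to between 3970 and 5260 CPM in lung and reached 534 CPM in hippocampus. Lung epithelial markers summed to between 7280 and 18600 CPM in lung and between 243 and 407 CPM in hippocampus. In saline animals with both tissues, 7 of these 9 were called higher in lung and 2 lower. Hippocampal neuron markers summed to between 2100 and 3700 CPM in hippocampus and between 8.67 and 21 CPM in lung. Astrocyte markers summed to between 2440 and 4790 CPM in hippocampus and between 210 and 534 CPM in lung. By sum, the epithelial, neuron and astrocyte lists were each higher in the tissue of their label, though not every marker was. Of 5 measured genes known to respond to glucocorticoids, 4 were called higher in lung 4 h after the clinical drug and 3 at 6 h after Beta-Ac, and none at 5 days in lung.

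Levels are given as CPM, the reads of a gene scaled to a common library size after TMM normalisation, without correction for gene length, so they compare libraries for 1 gene and not genes with each other. Calls come from edgeR's quasi-likelihood test over all genes and needed 3 things: a change of 1.5-fold or more, p below 0.05 and an adjusted p below 0.1. All lung comparisons with saline share the same 3 saline lungs, and those in hippocampus the same 5 controls.

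The first question was how these genes differed in lung within hours of each drug. At 4 h after the clinical drug the endothelin receptors moved apart: EDNRA fell 2.3-fold and EDNRB rose 2.01-fold. GUCY1A1 was 1.49-fold lower and missed the fold threshold, and the other 6 members were not called. The 2 called members of 9 stand beside 7.40% of all 17644 genes called, and the median log2 change of the 9 was -0.16 beside 0.02 over all genes. The members were chosen with earlier results of these data known, so this share is a description. With DESeq2 the same count of 2 was called. The paper lists only males at 4 h and both sexes among all its controls, and sex was not in the fit.

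EDNRA, which carries the constrictor signal of endothelin, was at 144, 150 and 155 CPM in the saline lungs. It was at 58.6, 63.9 and 73.2 CPM 4 h after the clinical drug. Every treated lung was below every saline lung, and the log2 change was -1.20 (SE 0.19, 95% interval -1.62 to -0.79, adjusted p = 0.00141 in edgeR, n = 3 per group). The call held in all 14 alternatives run, where the log2 change ranged from -1.31 to -1.14. Since whole lung was sequenced, fewer EDNRA cells and less EDNRA RNA per cell cannot be told apart.

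The pericyte markers were lower in sum. Their sum over the 6 measured of 9 listed genes was 1310 to 1360 CPM at 4 h and 1700 to 1850 CPM in saline. Of the 6, 1 was called, RGS5, which was lower, and the median log2 change of the 6 was -0.25. None of the 9 smooth muscle markers was called, and their sums overlapped, at 1930 to 2480 CPM against 2050 to 2640 CPM. Of 12 endothelial markers measured (14 listed) 1 was called, the growth factor receptor KDR, which was lower, and the sums were 3970 to 5140 CPM against 4400 to 5260 CPM. None of these lists had a measured gene at 0 in lung. The lung epithelial markers were higher, at sums of 12500 to 18600 CPM against 7280 to 10700 CPM without overlap, with SFTPC and ABCA3 called among 9. The myeloid marker CD163 was called higher, 1 of 6, and the platelet marker ITGA2B lower, 1 of 3. The part of these markers in the member results at 4 h was not tested.

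EDNRB, the clearing and dilator-releasing receptor, was at 760, 466 and 382 CPM in saline lungs. At 4 h it was at 1240, 591 and 1410 CPM. The middle treated library lay inside the saline range, so the groups overlapped although the means differed (log2 change 1.01, SE 0.30, adjusted p = 0.0447 in edgeR, n = 3 per group). The call was lost without clinical replicate 1 (adjusted p = 0.109), clinical replicate 3 (0.152), saline replicate 2 (0.136) or saline replicate 3 (0.162), with EDNRB still higher by 0.76 to 0.92 on the log2 scale. It was also lost when the 2 groups were fitted alone (adjusted p = 0.146). Without saline replicate 1, the library low in the run of identifiers, it was kept at 1.33 (adjusted p = 0.024).

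GUCY1A1, the alpha subunit of the nitric oxide receptor, was at 66.6, 63.3 and 56.8 CPM in saline lungs. At 4 h it was at 44.9, 43.8 and 36.6 CPM. All 3 treated lungs were below all saline lungs (log2 change -0.57, SE 0.11, adjusted p = 0.00523 in edgeR), and the fold lay just short of 1.5. In 7 of 14 alternatives it passed, the removal of the fold threshold among them. GUCY1B1, the beta subunit that pairs with it, was at 105, 103 and 106 CPM against 109, 117 and 126 CPM in saline. Its groups also did not overlap, but its log2 difference was only -0.16 (95% interval -0.36 to 0.04). EDNRA, GUCY1A1 and GUCY1B1 are the 3 of 9 members whose groups did not overlap, beside 21.3% of all genes.

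NOS3, the endothelial source of nitric oxide, was at 16, 39.6 and 32 CPM in saline lungs and at 31.2, 29.1 and 21.6 CPM at 4 h. The saline spread covered the treated values, and the log2 difference was -0.09 (95% interval -0.62 to 0.43). The lowest saline value came from replicate 1, without which the NOS3 difference was -0.41 (adjusted p = 0.181). PDE5A, the enzyme that ends the cyclic GMP signal, was at 43.9, 67.5 and 67 CPM in saline and at 56.2, 50.2 and 38.7 CPM at 4 h, which overlapped. PTGS1, the constitutive cyclooxygenase, was at 24.1, 34.4 and 33.5 CPM in saline and at 16.3, 22.6 and 28.3 CPM at 4 h, where 2 of 3 treated lungs were below every saline lung (adjusted p = 0.206). PTGS2, the inducible cyclooxygenase, was low throughout, at 4.04, 2.81 and 2.66 CPM in saline and at 4.24, 2.84 and 3.76 CPM at 4 h. PTGIS was at 8.92, 8.69 and 13.4 CPM in saline and at 18.7, 9.87 and 11.3 CPM at 4 h. For both the groups overlapped, and neither was called.

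**Figure D1:**
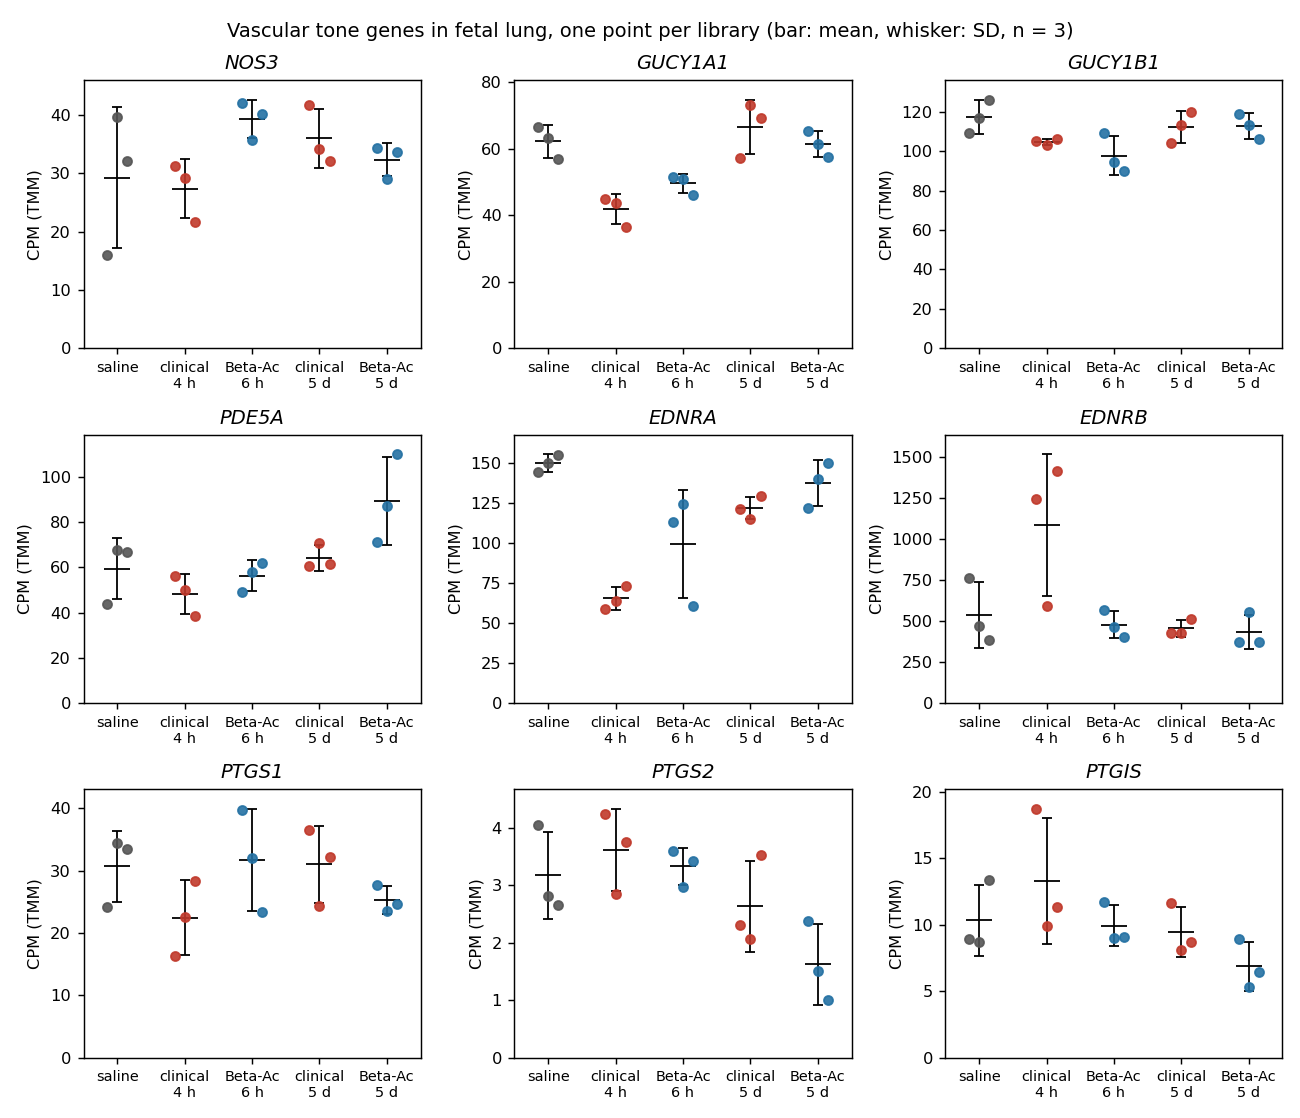
CPM of the 9 measured vascular tone genes (y axes, from 0) in each of the 15 fetal lung libraries, by group (x axes). Points are libraries, horizontal bars are means and whiskers are SD (n = 3). EDNRA at 4 h after the clinical drug lies between 58.6 and 73.2 CPM, below all saline lungs, and EDNRB there reaches 1410 CPM.

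At 6 h after Beta-Ac, 0 of 9 members were called, beside 0.442% of all genes. At an unadjusted p under 0.05 there were 3 members and 2021 of all 17644 genes, and DESeq2 called 0 members and 247 genes. EDNRA was at 113, 124 and 60.7 CPM, all below the saline lungs, with 1 library near the clinical drug level and the others between (log2 difference -0.59, SE 0.19, adjusted p = 0.233 in edgeR). Leaving out replicate 2, at 124 CPM, brought EDNRA to a call (log2 change -0.79, adjusted p = 0.0973). GUCY1A1 was at 51.6, 51 and 46.2 CPM, again below every saline lung (log2 difference -0.33, SE 0.11, adjusted p = 0.25). EDNRA and GUCY1A1 were the 2 members that did not overlap with saline, beside 16.3% of all genes.

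EDNRB after Beta-Ac was at 566, 461 and 401 CPM, within the saline range (log2 difference -0.17, 95% interval -0.81 to 0.46). GUCY1B1 was at 109, 94.5 and 89.8 CPM (adjusted p = 0.257) and touched the lowest saline value. NOS3 was at 42, 35.7 and 40.2 CPM, and PDE5A at 49, 58 and 62.1 CPM. PTGS1 was at 39.7, 32 and 23.4 CPM, PTGS2 at 3.59, 2.97 and 3.42 CPM, and PTGIS at 11.7, 9.02 and 9.07 CPM. All 5 of these genes overlapped with saline and their adjusted p was 0.39 or above.

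The drugs were also compared directly, although dose (0.25 against 0.125 mg/kg) and time (4 against 6 h) differed with the formulation and cannot be told apart from it. The clinical animals are numbered 15-81, 15-85 and 15-97, and the Beta-Ac animals 16-123, 16-131 and 17-254. Animal numbering thus differed with the drug as well. The paper lists only males 4 h after the clinical drug and both sexes 6 h after Beta-Ac, and sex was not in the fit. EDNRA was lower after the clinical drug (log2 difference -0.61, SE 0.19, adjusted p = 0.0567) and EDNRB was higher (1.18, SE 0.30, adjusted p = 0.0273), 2 of 9 members beside 6.74% of all genes. Of 6 red cell markers 4 were called lower after the clinical drug (HEMGN, HBA1, AHSP and SLC4A1). The sums were 217, 258 and 269 CPM against 161, 164 and 854 CPM after Beta-Ac. By sum, 1 Beta-Ac library was thus high and the others lay below every clinical library. RGS5 and KDR were called lower too. The part of these markers in the member differences was not tested. EDNRB, GUCY1A1 and NOS3 did not overlap between these groups (3 of 9 members, beside 22.4% of all genes), whereas EDNRA did, because the lowest Beta-Ac lung at 60.7 CPM lay within the clinical range. Fitted on these 2 groups alone, both calls were lost (adjusted p = 0.214 for EDNRA and 0.109 for EDNRB). EDNRA was also lost on leaving out clinical replicate 1 or 2 or Beta-Ac replicate 1 or 2, with log2 differences of -0.60 to -0.42. The other 7 members were not called, among them GUCY1A1 (-0.25, adjusted p = 0.14) and NOS3 (-0.52, adjusted p = 0.148). PTGS1 (-0.51, adjusted p = 0.137) passed without clinical replicate 3 (-0.72, adjusted p = 0.0978) or Beta-Ac replicate 3 (-0.69, adjusted p = 0.0901).

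The opposite moves of the receptors show within each library as a ratio of EDNRB to EDNRA reads, a measure chosen after the values were seen. The ratio was 5.27, 3.1 and 2.47 in saline lungs. It was 21.1, 9.25 and 19.2 at 4 h after the clinical drug, above every other lung library. After Beta-Ac at 6 h it was 5.01, 3.72 and 6.6. By 5 days it lay between 3.52 and 3.97 after the clinical drug and between 2.48 and 3.96 after Beta-Ac, inside the saline range. In hippocampus it ran from 16.6 to 31.8 over all 15 libraries and the groups overlapped. Because gene length is not corrected and the gene models may differ between tables, the ratio compares libraries of a tissue only.

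**Figure D2:**
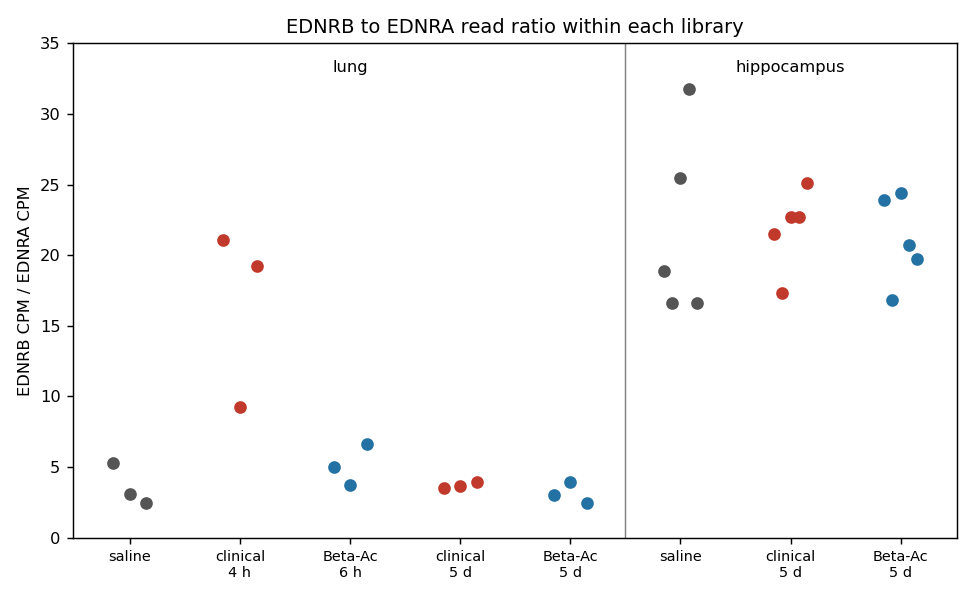
EDNRB CPM divided by EDNRA CPM in each library (y axis, no unit), by group, lung on the left of the line and hippocampus on the right. Points are libraries; the 3 lungs at 4 h after the clinical drug lie between 9.25 and 21.1, above the 12 other lungs, which end at 6.6.

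At 5 days after injection the question was whether these differences lasted. None of the 9 members was called after the clinical drug, where 0% of all genes were called (775 had an unadjusted p under 0.05 and DESeq2 called 16), and none after Beta-Ac, where 0.00567% were, which is 1 gene. DESeq2 called 0 members in both. At an unadjusted p under 0.05 there were 0 members after the clinical drug and 3 after Beta-Ac, where 1133 of all genes had such a p and DESeq2 called 40.

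EDNRA after the clinical drug was back at 121, 115 and 129 CPM, still below every saline lung but with a log2 difference of -0.30 (95% interval -0.71 to 0.11). It was the single member that did not overlap with saline, beside 12.3% of all genes. EDNRB was at 426, 423 and 514 CPM, GUCY1A1 at 57.3, 73.1 and 69.1 CPM and GUCY1B1 at 104, 113 and 120 CPM. NOS3 was at 41.7, 34.1 and 32.1 CPM and PDE5A at 60.5, 70.6 and 61.3 CPM. PTGS1 was at 36.5, 24.3 and 32.2 CPM, PTGS2 at 2.3, 2.06 and 3.53 CPM and PTGIS at 11.6, 8.09 and 8.67 CPM. These 8 genes overlapped with their saline values.

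Within the clinical drug, 4 h against 5 days, 3 of 9 members were called beside 10.4% of all genes. EDNRA was lower at 4 h (log2 change -0.90, SE 0.19, adjusted p = 0.00647), as was GUCY1A1 (-0.67, SE 0.11, adjusted p = 0.0014), and EDNRB was higher (1.25, SE 0.30, adjusted p = 0.0122). All 3 calls held in every one of the 14 alternatives run. The 4 h animals are numbered 15-81, 15-85 and 15-97, and the 5-day animals 16-115, 16-120 and 16-126. Animal numbering thus cannot be told apart from time here. The paper lists only males at 4 h and both sexes at 5 days, and sex was not in the fit. For these 3, and for NOS3 and PDE5A, the groups did not overlap (5 of 9, beside 29.1% of all genes). Both groups are also part of the comparisons with saline above, so these values are not independent of those.

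At 5 days after Beta-Ac, PDE5A was at 71.1, 87 and 110 CPM, above all saline lungs, and PTGS2 at 2.38, 1.5 and 0.995 CPM, below all of them. They were the 2 members that did not overlap, beside 12.1% of all genes. Neither passed the test (PDE5A 0.59, SE 0.19, adjusted p = 0.665; PTGS2 -0.96, SE 0.33, adjusted p = 0.676). PTGS2 rested on 27 to 61 reads per library in that group. PTGIS was at 8.91, 5.29 and 6.41 CPM (log2 difference -0.59, adjusted p = 0.734). EDNRA, at 122, 140 and 150 CPM, EDNRB, at 370, 554 and 373 CPM, and GUCY1A1, at 65.4, 61.4 and 57.4 CPM, overlapped with saline. NOS3 was at 34.3, 29 and 33.6 CPM, GUCY1B1 at 119, 113 and 106 CPM and PTGS1 at 27.7, 23.5 and 24.6 CPM, and these overlapped too.

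Within Beta-Ac, 6 h against 5 days, 0 of 9 members were called beside 0.261% of all genes, with 5 members and 1396 of all genes at an unadjusted p under 0.05. The groups did not overlap for NOS3, GUCY1A1, PDE5A, PTGS2 and PTGIS, 5 of 9 beside 13.0% of all genes. PDE5A was lowest in adjusted p (log2 difference -0.67, adjusted p = 0.248), and it was the 1 member among the 185 genes that DESeq2 called (-0.68, adjusted p = 0.0547). The drugs compared at 5 days gave 0 of 9 members and 0% of all genes. There 1 member, PDE5A, had an unadjusted p under 0.05 and did not overlap, beside 11.3% of all genes that did not overlap, and DESeq2 called 0. Over all genes 556 had an unadjusted p under 0.05 and DESeq2 called 8. The doses differed at this time as well.

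**Figure D3:**
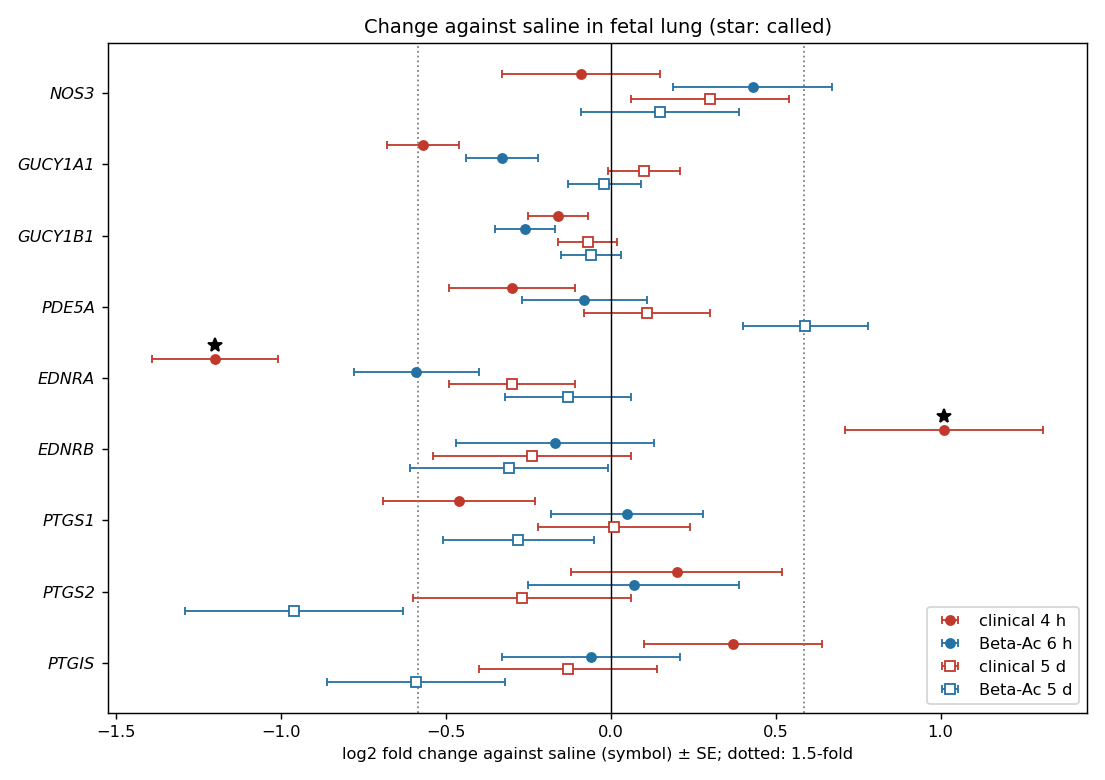
Log2 fold change against saline (x axis) of the 9 genes (y axis) in the 4 drug groups of fetal lung, with SE as whiskers. Filled circles are 4 or 6 h, open squares 5 days, red the clinical drug, blue Beta-Ac; stars mark the called values, EDNRA at -1.20 and EDNRB at 1.01, and dotted lines mark 1.5-fold.

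Among the 15 lung libraries some members varied together. GUCY1A1 and EDNRA had a Pearson r of 0.76 over the 15 libraries, which became 0 once group means were removed. PDE5A and PTGS2 went opposite ways, with r of -0.87 over all libraries and -0.67 within groups. These pairs were picked from 36 after their values were seen and share depth and scaling, so they are descriptions. Ranking 12455 lung genes with a symbol by r over the 15 libraries, the pair most like EDNRA was P2RY14 at 0.95 and NWD2 at 0.94. For EDNRB it was ADGRL2 at 0.92 and OSBPL1A at 0.91, and for GUCY1A1 it was SLITRK5 at 0.92 and THYN1 at 0.90. GUCY1B1 was most like INSIG2 at 0.88 and ENPP2 at 0.85. NOS3 was nearest to ARFRP1 and SOX5, both at 0.87, and PDE5A to TMEM186 at 0.90 and DHH at 0.87. PTGS1 was nearest to LDB2 at 0.88 and OAF at 0.86, and PTGS2 to NRSN1 at 0.86 and ADAM11 at 0.83. PTGIS was nearest to ECE1, an endothelin-converting enzyme, at 0.88 and HIP1 at 0.82.

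Other genes of the same pathways were taken from a list of 73 names, of which 63 were in the lung table and 62 had enough reads to test. At 4 h after the clinical drug 9 of 62 (14.5%) were called, 4 higher and 5 lower, beside the 7.40% of all genes. The median log2 change of the 62 was 0.03. This list was also chosen with earlier results of these data known, so its shares are descriptions. No call was made among the 62 in the other lung comparisons with saline, where 8, 1 and 5 had an unadjusted p under 0.05 (Beta-Ac at 6 h, the clinical drug and Beta-Ac at 5 days) and DESeq2 called 2, 0 and 0.

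Of 11 genes of arginine and cofactor supply 2 were called, 1 higher and 1 lower. GCH1, the first enzyme of tetrahydrobiopterin synthesis, rose from 4.88, 5.2 and 4.42 CPM to 11.6, 10 and 12.3 CPM, with no overlap (log2 change 1.23, adjusted p = 0.0111 in edgeR). SLC7A2, an arginine transporter, fell from 78.6, 93.1 and 149 CPM to 79.7, 42.5 and 57 CPM, overlapping (-0.83, adjusted p = 0.0793). The call of SLC7A2 was lost under 7 alternatives, Benjamini-Hochberg adjustment among them (adjusted p = 0.116). The 6 tested synthases and their regulators gave no call.

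Of 5 cyclase and natriuretic peptide genes, which act on cyclic GMP, 2 rose and 1 fell. NPR1, a receptor that is itself a guanylate cyclase, went from 151, 161 and 136 CPM to 230, 230 and 253 CPM (log2 change 0.67, adjusted p = 0.0114). NPR3, the clearance receptor, went from 9.58, 9.31 and 8.93 CPM to 32.3, 13.8 and 17.8 CPM (1.21, adjusted p = 0.0274), and was not called without clinical replicate 1 (0.75, adjusted p = 0.113). In both, every treated lung was above every saline lung. NPPC, which encodes the C-type natriuretic peptide, was called lower (-2.16, adjusted p = 0.0545) on only 14, 18 and 7 reads in saline and 11, 1 and 2 reads at 4 h. PDE9A, a phosphodiesterase specific for cyclic GMP, fell from 14.9, 17 and 19.8 CPM to 9.56, 12.7 and 10.1 CPM (-0.69, adjusted p = 0.0124). Without saline replicate 3, PDE9A fell short of the fold threshold at -0.57. PDE9A was the 1 call among 7 phosphodiesterases, and none of the 7 cyclic GMP kinases and contractile targets was called.

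Of 6 endothelin ligands, converting enzymes and related peptidases (EDN2, EDN3, ECE1, ECE2, ECEL1 and MME) none was called against saline in lung. In the prostaglandin group SLCO2A1, a transporter that takes prostaglandins out of the circulation, rose from 151, 145 and 121 CPM to 274, 198 and 341 CPM, with no overlap (log2 change 0.97, adjusted p = 0.0118). HPGDS, a prostaglandin D2 synthase, fell from 2.32, 1.1 and 1.76 CPM to 0.672, 0.224 and 0.25 CPM (-2.02, adjusted p = 0.00911), with 29, 3 and 4 reads at 4 h. PTGER1, a prostaglandin E2 receptor, fell from 3.45, 2.74 and 1.86 CPM to 0.741, 1.57 and 1.06 CPM (-1.29, adjusted p = 0.0607), and its call was lost under 6 alternatives, leaving out saline replicate 1 among them (-1.08, adjusted p = 0.193). NPPC lost its call without saline replicate 1 too (-2.14, adjusted p = 0.12).

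Between the drugs at the early times 3 of 62 list genes were called (4.84%, beside the 6.74% of all genes). HPGDS (-1.81, adjusted p = 0.0215) and PTGER1 (-1.11, adjusted p = 0.0894) were lower after the clinical drug. ECEL1, a neuronal relative of the converting enzymes, was higher (2.94, adjusted p = 0.0901), from 7.13 to 9.73 CPM after Beta-Ac and from 33 to 88.8 CPM after the clinical drug, while saline lungs spanned 10.5 to 79.8 CPM. ECEL1 and PTGER1 each lost this call in 7 of 14 alternatives, and the count of 3 ran from 1 to 7. Within the clinical drug, 4 h against 5 days, 10 of 62 (16.1%) were called, 3 higher and 7 lower at 4 h, beside the 10.4% of all genes. The count ran from 6 to 14 over the alternatives. GCH1 (1.03), NPR1 (0.77) and SLCO2A1 (1.05) were higher in log2 terms. HPGDS (-2.53), NPPC (-1.62), PTGER1 (-1.29), NOS2 (-1.01), SPR (-0.92), SLC7A2 (-0.88) and PRXL2B (-0.69) were lower. NOS2 is the inducible nitric oxide synthase, SPR completes tetrahydrobiopterin synthesis and PRXL2B makes prostaglandin F2. Of 14 alternatives, NPPC lost its call in 8, NOS2 and PRXL2B in 7, SPR in 6, SLC7A2 in 4 and PTGER1 in 1.

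**Figure D4:**
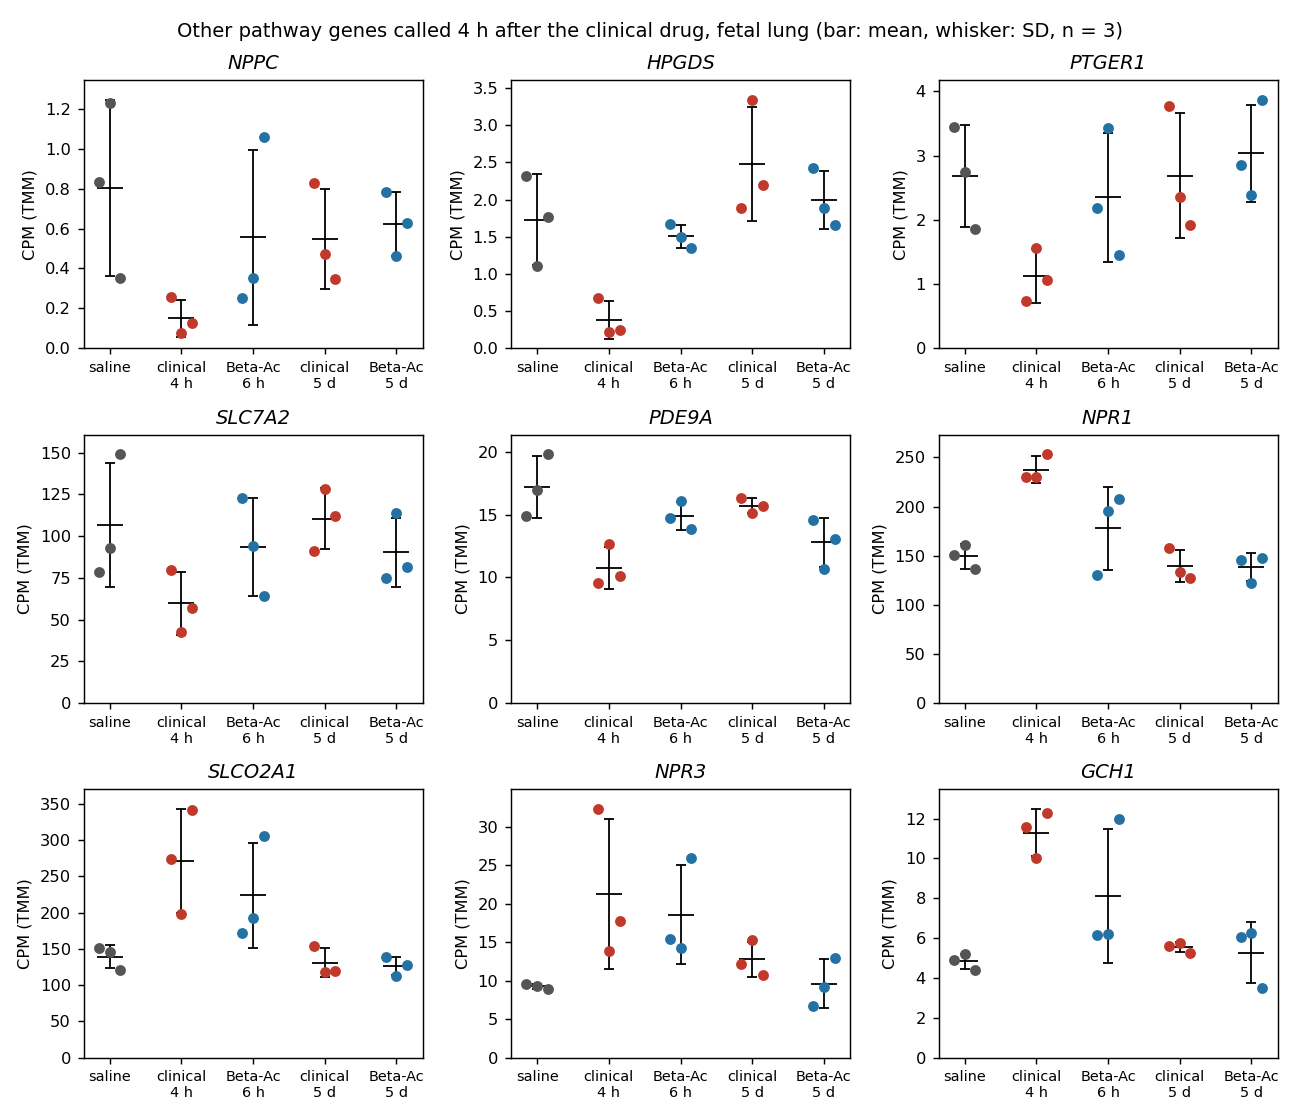
CPM (y axes, from 0) of the 9 other pathway genes called 4 h after the clinical drug, in the 15 lung libraries by group (x axes), ordered from the most lowered to the most raised. Points are libraries, bars means and whiskers SD (n = 3); GCH1 and NPR1 at 4 h lie above all saline lungs, and HPGDS below.

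In hippocampus the 5-day groups served as contrast. After the clinical drug 1 of 9 members was called, beside 7.86% of all 17390 genes tested. After Beta-Ac 0 members were called, with 0% of genes, 1 member at an unadjusted p under 0.05 and 0 by DESeq2. Over all genes 2133 had an unadjusted p under 0.05 there and DESeq2 called 149. Between the drugs 0 were called, with 0% of genes, none at an unadjusted p under 0.05 and 0 by DESeq2, which gave no adjusted p for PTGS2 and PTGIS. Over all genes 2346 had an unadjusted p under 0.05 and DESeq2 called 186. In each of these comparisons all 9 members overlapped between groups, while 15.1%, 1.33% and 2.76% of all genes did not (clinical drug, Beta-Ac and the drugs compared).

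The called member was PTGIS, at 3.65, 3.62, 1.52, 2.78 and 1.8 CPM in saline and at 1.72, 1.44, 1.17, 0.744 and 1.29 CPM after the clinical drug (log2 change -1.07, SE 0.39, adjusted p = 0.0784 in edgeR, n = 5 per group). Reads per library were 17 to 93 in these groups. The libraries came from 4 sequencing runs, and the highest saline values, 3.65 and 3.62 CPM, were from a run that held no drug-treated library. With the run as a block PTGIS was at -0.44 (adjusted p = 0.601), and in the 2 runs that held all groups at -0.36 (adjusted p = 0.701). In those runs PTGIS was at 1.52 CPM in saline and 1.17 to 1.72 CPM after the drug in the first, and at 1.8 against 0.744 and 1.29 CPM in the second. The call was also lost on leaving out saline replicate 1 (-0.93, adjusted p = 0.162), saline replicate 2 or 4, or clinical replicate 2, 3, 4 or 5. Without the 2 libraries low in the run of identifiers it was kept at -0.92 (adjusted p = 0.0898).

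GUCY1A1 was at 74.7, 26.4, 19, 17.1 and 14.8 CPM in saline hippocampus, where replicate 1 stood apart. It was at 18.6, 22, 17, 13.4 and 14.1 CPM after the clinical drug (log2 difference -0.83, adjusted p = 0.142). Without saline replicate 1 the difference was -0.18 (adjusted p = 0.62), and with the run as a block it was -0.05. DESeq2 called GUCY1A1 (-0.82, adjusted p = 0.0896). The same animal had a GUCY1A1 level of 66.6 CPM in lung, near the other saline lungs.

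EDNRA was at 8.71, 9.29, 11.3, 7.22 and 13.2 CPM in saline and at 14.4, 14, 12.8, 9.93 and 11.9 CPM after the clinical drug (log2 difference 0.34, SE 0.16, adjusted p = 0.17). EDNRB was at 164, 155, 288, 229 and 219 CPM in saline and at 309, 243, 290, 225 and 298 CPM after it (0.37, SE 0.17, adjusted p = 0.159). Both differences shrank with the run as a block, to 0 for EDNRA and 0.10 for EDNRB. GUCY1B1 ran from 91.6 to 159 CPM in saline and from 98.1 to 135 CPM after the clinical drug. NOS3 ran from 3.95 to 10.2 and from 4.29 to 8 CPM, and PDE5A from 11.7 to 30.7 and from 9.53 to 26.8 CPM. PTGS1 ran from 1.11 to 6.88 and from 1.92 to 4.82 CPM, and PTGS2 from 1.03 to 2.53 and from 0.85 to 2.98 CPM. In EDNRA, NOS3, PDE5A and PTGS1 the highest saline value was replicate 5, the library with choroid plexus markers, whose endothelial markers were also the highest at 534 CPM. After the clinical drug the endothelial markers VWF and EMCN were called lower, 2 of 13 tested, and the sums overlapped. Of 4 choroid plexus markers 3 were called lower (CLIC6, FOLR1 and OTX2), with sums of 13.6 to 21.1 CPM against 7.81 to 1080 CPM in saline. The astrocyte marker AQP4 and the neuronal marker NEUROD1 were called higher, and the astrocyte sums were 3490 to 4790 CPM against 2440 to 3710 CPM. The part of these markers in the member values was not tested.

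After Beta-Ac the hippocampus medians were 7.22 CPM for NOS3, 15.6 for GUCY1A1, 111 for GUCY1B1 and 19.8 for PDE5A. The median was 12.1 CPM for EDNRA, while EDNRB ran from 196 to 314 CPM. Medians were 2.54 CPM for PTGS1, 2.34 for PTGS2 and 1.67 for PTGIS. The largest log2 difference from saline was that of GUCY1A1 (-0.99, SE 0.37, adjusted p = 0.32), which was -0.34 (adjusted p = 0.621) without saline replicate 1.

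**Figure D5:**
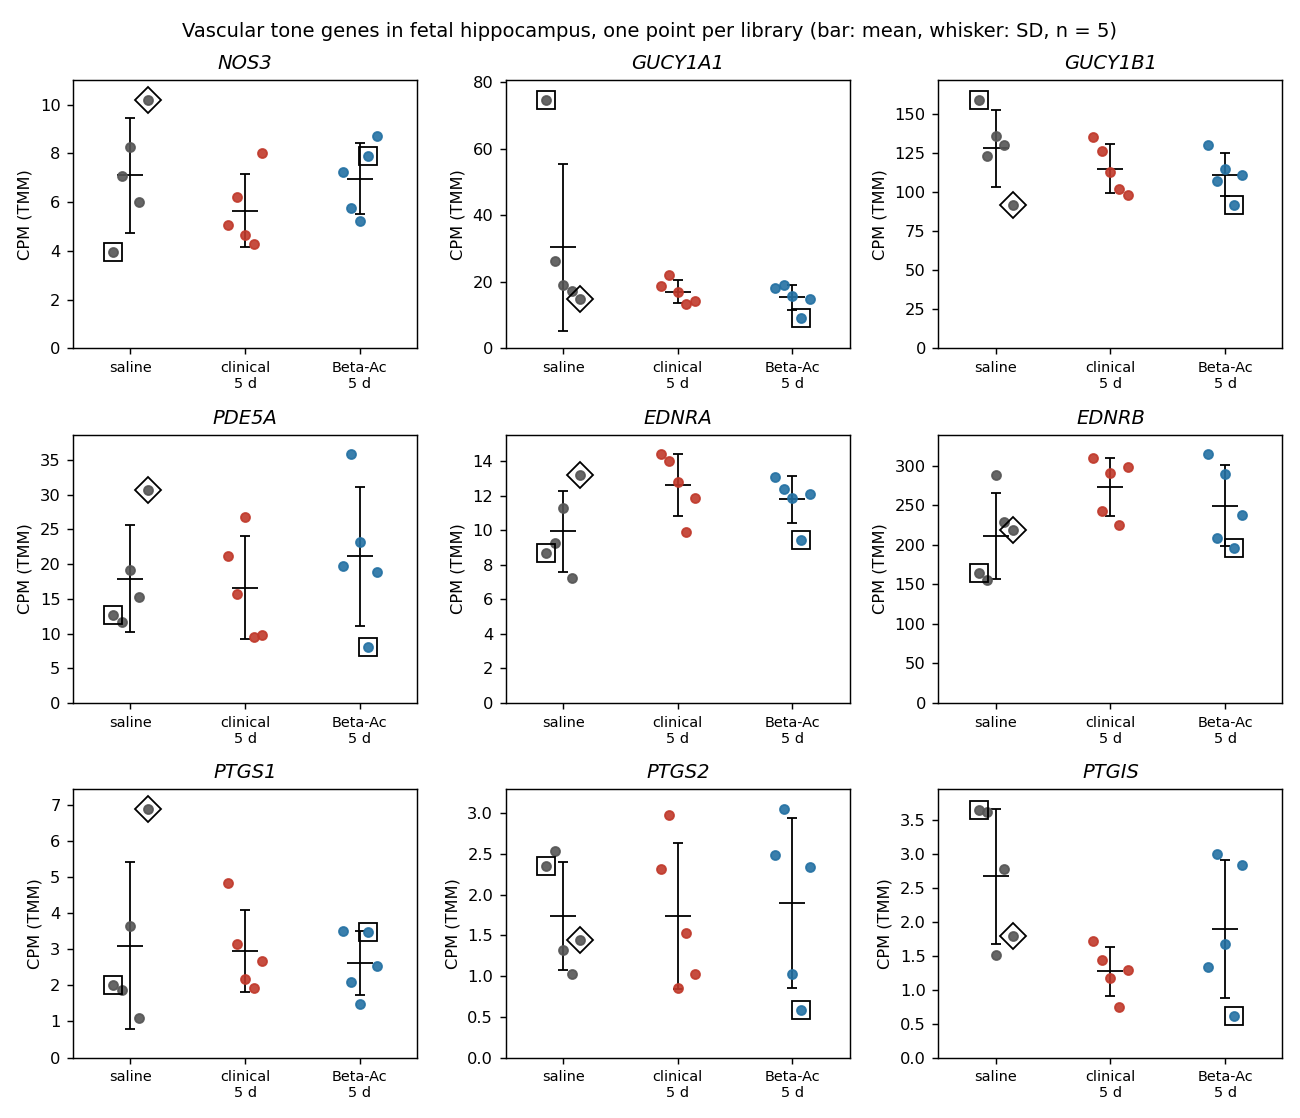
CPM of the 9 genes (y axes, from 0) in each of the 15 hippocampus libraries by group (x axes), with means as bars and SD as whiskers (n = 5). Squares mark the 2 libraries low in the run of identifiers and diamonds the saline library with choroid plexus markers; GUCY1A1 at 74.7 CPM in a squared saline library stands apart, and all groups overlap.

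Of the pathway list 8 of 61 genes tested (13.1%) were called in hippocampus after the clinical drug, 1 higher and 7 lower, beside the 7.86% of all genes. IRAG1, a target of the cyclic GMP kinase, rose from 5.43 to 14.1 CPM across saline libraries to between 16.3 and 34.7 CPM, with no overlap (log2 change 1.41, adjusted p = 0.0138). NOS1, the neuronal nitric oxide synthase, fell from between 15.6 and 32 CPM to between 11.7 and 14.7 CPM (-0.82, adjusted p = 0.0311), and NOSIP, a nitric oxide synthase interacting protein, from between 11.8 and 15.7 to between 6.63 and 8.95 CPM (-0.72, adjusted p = 0.0769). Neither overlapped. The phosphodiesterases PDE1B (-0.69, adjusted p = 0.0238) and PDE10A (-0.64, adjusted p = 0.0313) fell, as did the clearance receptor NPR3 (-0.84, adjusted p = 0.0897), the peptidase MME (-0.93, adjusted p = 0.0589) and the transporter ABCC4 (-0.72, adjusted p = 0.0697).

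With the run as a block, 6 of these were lost: PDE1B, NOSIP, MME, NPR3, NOS1 and PDE10A. In the 2 runs that held all groups IRAG1 also missed the threshold (1.04, adjusted p = 0.142). ABCC4 was highest in saline replicate 5, at 30.3 CPM against 11.7 to 15.4 CPM in the other saline libraries, and was lost without it (-0.38, adjusted p = 0.168). NPR3 was called higher in lung at 4 h and lower in hippocampus at 5 days, in different tissues, times and control sets, and that difference was not tested. After Beta-Ac 0 of 61 were called in hippocampus, with 8 at an unadjusted p under 0.05 and 2 by DESeq2.

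In all, 9 animals gave both tissues, 3 saline and 3 for each drug at 5 days, and were fitted together with the animal as a block. In saline animals 7 of 9 members were higher in lung, beside 34.6% of all 15173 genes called higher in lung and 71.4% called in either direction. EDNRA was 14-fold higher (log2 difference 3.80, SE 0.12) and PTGS1 was 11.4-fold higher (3.50, SE 0.27). NOS3 (2.02), PDE5A (1.90), PTGIS (1.72), EDNRB (1.27) and GUCY1A1 (0.75) were also higher in lung. GUCY1B1 was at -0.38 and PTGS2 at 0.50, neither called. GUCY1A1 was not called without the animal block (0.50, adjusted p = 0.162) or without saline replicate 2 (0.56) or 3 (0.39). Vascular cell markers were higher in lung too in this comparison. Called higher were 9 of 9 smooth muscle markers (median log2 difference 5.65), 11 of 12 endothelial (3.56) and 5 of 6 pericyte markers (1.87). None of these was called lower. The part of cell content in the member differences was not tested. The tables share 20572 identifiers, 68% of those in lung and 63.5% of those in hippocampus, so differences between tissues cannot be told apart from differences in library and gene model.

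The last question was whether the 5-day response differed between tissues. For the clinical drug 1 of 9 members was called, beside 4.95% of all genes, which is 751. That number of genes fell to between 0 and 3 without saline replicate 1 or 2 or any 1 clinical replicate. Without saline replicate 3 it was 1046. The member called was EDNRA, whose response was lower in lung than in hippocampus by 0.80 on the log2 scale (interaction -0.80, SE 0.16, adjusted p = 0.0645). In the separate fits of each tissue, which hold other hippocampus animals as well, EDNRA was at -0.30 in lung and 0.34 in hippocampus and was called in neither. The call was lost without saline replicate 1 or 2 or any 1 of the clinical replicates, with adjusted p between 0.13 and 0.217, and 2 of the 3 hippocampus controls in this fit came from the run without drug-treated libraries. For Beta-Ac 0 members were called, with 0% of genes, 2 members at an unadjusted p under 0.05 and 0 by DESeq2, which gave no adjusted p for PTGS2 and PTGIS. Over all genes 2271 had an unadjusted p under 0.05 and DESeq2 called 546. Of 63 list genes 2 were called for the clinical drug, PTGFR, a prostaglandin F2 receptor (-1.27, adjusted p = 0.0843), and PDE1B (0.84, adjusted p = 0.0704). They are named because of their values. Both calls were lost without saline replicate 1 or 2 or any 1 clinical replicate.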

How the data were processed

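The members and gene lists were chosen with earlier results of these data known. The deposited counts are whole reads per Ensembl gene, made by the authors with featureCounts before their own filter and normalization. The paper gives Bowtie 2 and MMUL1.0, whereas the lung labels name Bowtie 1.2.1.1 and featureCounts 1.5.1. Hippocampus labels name poly(A) selection and 75 bp paired-end reads. Symbols were available for 15769 lung and 17621 hippocampus identifiers. Levels of unlike genes were not compared, since gene lengths were not used here, and no genome sequence was used.

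Counts were fitted in edgeR 4.0.16 (R 4.3.3) with TMM and the quasi-likelihood F test, 1 fit per tissue over its 15 libraries. A gene entered a fit with 7 or more reads in 3 or more lung libraries, or in 5 or more of hippocampus. P values were adjusted over all genes by Storey's method in lung and by Benjamini-Hochberg in hippocampus and in the joint fit, which held 18 libraries of 9 animals (7 or more reads in 3 libraries). There the animal was the block, since the labels give the same animal numbers in both tissues. SE is the log2 change over the square root of F. Fold changes use a prior count of 0.125. Libraries are separate animals, and the spread between them sets the precision, so no counting intervals are given. Likeness between genes was Pearson's r of log2 CPM with a prior count of 2. All 10 members, called pathway genes and the pair most like each member are named. DESeq2 1.42.0, other scaling, filters and adjustments, each replicate left out, the run as a block and the treatment field as grouping were alternatives. The procedure was run on simulated counts with known changes. These held no animal or tissue effect, so they do not stand for the joint fit.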

Additional observations from a re-analysis of the deposited data

Results flagged for a closer look

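In hippocampus, the GUCY1A1 level of saline replicate 1 was 74.7 CPM, far from the other 4 saline libraries, which ran from 14.8 to 26.4 CPM. Of 27 sets of a gene and a hippocampus group looked at for such a gap this was the single one found. The rule is set to flag about 1 set in 20 where values are normally spread and independent, and the 27 sets share libraries. Whether chance gave this gap was not tested. The library is 1 of the 2 that were low in the run of 37 identifiers, and the part of that in the GUCY1A1 value was not tested.

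The 5-day response to the clinical drug was called different between lung and hippocampus for EDNRA (interaction -0.80, SE 0.16, adjusted p = 0.0645 in edgeR). It was also called for PTGFR (-1.27, SE 0.34, adjusted p = 0.0843) and for PDE1B (0.84, SE 0.20, adjusted p = 0.0704). All of these calls were lost without saline replicate 1 or 2 or any 1 clinical replicate, where 0 to 3 of all genes were called. These come from the joint fit of the animals with both tissues. The fits of each tissue alone, which hold other hippocampus animals as well and so do not add up to the interaction, gave -0.30 in lung and 0.34 in hippocampus for EDNRA, -0.54 and 0.18 for PTGFR, and 0.08 and -0.69 for PDE1B. Without the animal block PTGFR was not called (-1.29, adjusted p = 0.278).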

How the results depend on the processing

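Of 1881 values of the members under alternatives, 1833 stayed on their side of the threshold, 30 lost a call, 18 gained one and 0 called values changed sign. Among values called in neither setting 79 changed sign, the largest of size 0.58. The members called 4 h after the clinical drug numbered 1 to 3 with a replicate left out, and those called 6 h after Beta-Ac 0 to 1. Between the drugs at the early times 0 members were called when the 2 groups were fitted alone and 1 to 3 with a replicate left out. Between 4 h and 5 days of the clinical drug 3 to 4 were. Between 6 h and 5 days of Beta-Ac DESeq2 called 1 member. For the clinical drug in hippocampus 0 members were called with no filter on low counts, with the run as a block, in the 2 runs with all groups and under the treatment field as grouping; 2 were called by DESeq2 and by Storey's adjustment, and 0 to 2 with a replicate left out. Under the treatment field as grouping, which exchanges the drugs, 1 member was called for Beta-Ac in hippocampus. The members called in the interaction of the clinical drug numbered 0 to 3 with a replicate left out. Without the animal block 6 members rather than 7 differed between tissues, and the pairing changed no call of a member other than GUCY1A1. Of the pathway genes, the called value of NOSIP in hippocampus after the clinical drug went to 0 under the treatment field as grouping. That grouping only exchanges the drug labels, so there the libraries named Beta-Ac were compared with saline. The causes of the other changes were not tested. With 3 animals per lung group, members with an SE near 0.30, such as EDNRB, could change by 1.5-fold without being called.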
